A study of Arabidopsis thaliana with 10 samples.

Results

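The genes described here are 30 loci of Arabidopsis thaliana that encode steps of tetrapyrrole and chlorophyll synthesis, together with the haem, bilin and sirohaem branches. They were taken by locus identifier from the 33602 loci of the count table, each for the step it encodes. The list was drawn up with earlier results of these data known. The paper had already reported tetrapyrrole metabolism and pigment biosynthesis as enriched among downregulated genes of the same data. Of the 30 genes, 29 passed the filter on low counts, which left 16721 genes for the tests. PORA, whose counts ran from 5 to 72 per library, did not pass and enters none of the counts of called genes.

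RNA came from intact seedlings of Col-0 background, grown for 8 d on 1/2 MS medium with sucrose in long days and sampled in bulk. P1-12 is one transgenic line that carries a dexamethasone (Dex)-inducible dCas9-KRAB repressor together with the P1 guide RNA directed at MORF2, a gene for a plastid RNA editing factor. KRAB is one line with the same inducible repressor and no guide RNA. P1-12 was grown with 0.25 μM Dex, with 0.025 μM Dex or with DMSO, and KRAB with 0.25 μM Dex or with DMSO, in 2 libraries each. All 5 groups carry the inducible repressor, and each genotype is represented by a single line. The libraries within a group are biological replicates according to the study's methods, without a statement of how their seedlings were separated, and p-values measure the spread between them.

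Tetrapyrrole synthesis in plants starts in the chloroplast from glutamyl-tRNA, which is reduced and rearranged to 5-aminolevulinic acid (ALA). A common trunk then joins ALA molecules into a ring and oxidises it to protoporphyrin IX. Magnesium chelatase sends protoporphyrin IX towards chlorophyll, ferrochelatase sends it towards haem and the bilins, and an earlier side branch makes sirohaem. Several intermediates are photosensitisers, and the pathway is known for its tight control by light and by the state of the chloroplast. HY1, HY2, GUN4 and CHLH are also the loci of genomes uncoupled mutants, in which nuclear photosynthesis genes stay active when plastids are damaged.

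The stretches of genome just upstream of 5 of these genes are printed below to show the sequence at genes whose transcripts are described in detail. PORB and PORC were among the members that were lowest relative to P1-12 (+DMSO), CAO held more than one copy of a light-response motif, and HEMA2 and FC1 were the members with higher transcript levels in P1-12 (+0.25 μM Dex). Each runs 5′ to 3′ on the strand of its gene, from 250 bases before the annotated start to 50 after it, in RefSeq's TAIR10.1 assembly, at chr4:13725296-13725595 for PORB on the plus strand, chr1:907273-907572 for PORC on the plus strand, chr1:16851222-16851521 for CAO on the minus strand, chr1:3239505-3239804 for HEMA2 on the minus strand and chr5:9096201-9096500 for FC1 on the plus strand. Capitals mark the matches to any of 4 motifs searched on both strands, the G-box CACGTG, the CCAAT-type element CCAATC, the I-box core GATAAG and the evening element AAATATCT. The motif letters do not overlap one another at the positions marked.
PORB: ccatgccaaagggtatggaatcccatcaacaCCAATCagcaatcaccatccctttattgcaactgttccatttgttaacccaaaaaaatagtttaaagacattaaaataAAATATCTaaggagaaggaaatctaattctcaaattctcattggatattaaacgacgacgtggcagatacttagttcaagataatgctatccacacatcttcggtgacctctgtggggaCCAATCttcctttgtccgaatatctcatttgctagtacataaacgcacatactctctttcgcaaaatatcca
PORC: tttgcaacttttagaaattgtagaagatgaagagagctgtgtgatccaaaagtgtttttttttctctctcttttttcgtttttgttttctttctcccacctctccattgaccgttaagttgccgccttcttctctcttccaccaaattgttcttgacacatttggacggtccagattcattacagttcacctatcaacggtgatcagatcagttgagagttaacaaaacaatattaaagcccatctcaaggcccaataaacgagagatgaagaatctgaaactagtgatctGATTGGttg
CAO: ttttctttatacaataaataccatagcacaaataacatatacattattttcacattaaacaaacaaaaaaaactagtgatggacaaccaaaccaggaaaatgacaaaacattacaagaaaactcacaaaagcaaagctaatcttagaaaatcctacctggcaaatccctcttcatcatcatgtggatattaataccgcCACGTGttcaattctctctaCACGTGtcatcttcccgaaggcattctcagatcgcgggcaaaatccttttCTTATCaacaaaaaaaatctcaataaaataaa
HEMA2: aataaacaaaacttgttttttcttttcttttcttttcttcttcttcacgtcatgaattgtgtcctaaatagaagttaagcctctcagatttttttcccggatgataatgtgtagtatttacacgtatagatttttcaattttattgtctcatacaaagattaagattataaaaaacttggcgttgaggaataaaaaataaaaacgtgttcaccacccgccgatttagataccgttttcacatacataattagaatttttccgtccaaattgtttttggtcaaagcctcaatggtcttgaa
FC1: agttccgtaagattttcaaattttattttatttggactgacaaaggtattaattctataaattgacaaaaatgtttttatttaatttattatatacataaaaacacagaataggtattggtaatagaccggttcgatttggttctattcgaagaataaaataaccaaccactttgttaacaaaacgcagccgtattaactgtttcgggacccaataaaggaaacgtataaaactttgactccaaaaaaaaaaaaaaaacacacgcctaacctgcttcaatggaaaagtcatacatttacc

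The PORB window held CCAATC at 219 and at 22 bases before the start and an evening element at 141 bases before it. The PORC window held CCAATC on the other strand, read here as GATTGG, at 41 bases after the start. CAO had G-boxes at 52 and 32 bases before its start, and an I-box core on the other strand 18 bases after it, whereas the windows of HEMA2 and FC1 held none of the 4 motifs. All 30 genes had a window in the RefSeq annotation. The G-box was in 4 of the 30 windows (13.3%, against 7.68% of all 27443 windows of the same length), in CRD1, CAO, FC2 and HY2. CCAATC was in 6 windows (20% against 12.3% of all), the I-box core in 6 (20% against 14.6%) and the evening element in 2 (6.67% against 5.65%), those of PORA and PORB. With the 50 bases after the start left out, CCAATC was in 3 members and the I-box core in 2. These matches are letters in a window and carry no measurement.

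Sequencing depth ran from 9139050 to 40544617 counts per library, with the 2 P1-12 (+0.25 μM Dex) libraries the shallowest of all at 9139050 and 10236033 counts. Expression is given as CPM, the count scaled by the TMM-adjusted size of its library, and a gene was called higher or lower at a Benjamini-Hochberg adjusted p under 0.05 in edgeR's quasi-likelihood test over all 16721 genes. MORF2, the targeted gene, had 52.3 and 56.0 CPM in P1-12 (+0.25 μM Dex), against 113 and 118 CPM in P1-12 (+DMSO), with a log2 change of -1.09 (SE 0.07, adjusted p = 2.04e-08). It had 109 and 106 CPM in P1-12 (+0.025 μM Dex), where its log2 change was -0.10 (adjusted p = 0.469), and 116 and 123 CPM in KRAB (+0.25 μM Dex), against 124 and 118 CPM in KRAB (+DMSO). At the lower dose the libraries therefore do not show the MORF2 transcript as changed beyond replicate spread. The paper, by qPCR, reports reduced MORF2 expression in P1-12 at doses down to 0.025 μM Dex. The 2 libraries of a group differed by more than counting noise in all 5 groups, with a chi-square per gene of 2.78 to 6.66 on 1 degree of freedom, so none was counted as a duplicate.

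The first comparison asked how the pathway's transcripts stood in P1-12 seedlings given the higher Dex dose, against the same line on DMSO. Nearly the whole pathway was lower. Of the 29 genes tested, 26 fell, HEMA2 and FC1 rose, and HY1 did not pass the test. Over all genes tested, 29.2% were called lower and 28.3% higher in this comparison. The median log2 fold change of the 29 genes was -1.07, a level of 0.477 of that in P1-12 (+DMSO), beside a median of -0.00234 over all genes, and their range was -2.39 to 0.42. With the stricter threshold of the SDEG, a log2 change of 1 or more in either direction with an adjusted p under 0.0001, 18 of the 29 genes were called downwards, as were 8.06% of all genes. Summed over the 30 loci, the 2 libraries of P1-12 (+0.25 μM Dex) had 5359 and 5435 CPM, against 11436 and 12007 CPM in those of P1-12 (+DMSO). In bulk seedlings, fewer cells of a type and less RNA per cell cannot be told apart.

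**Figure D1:**
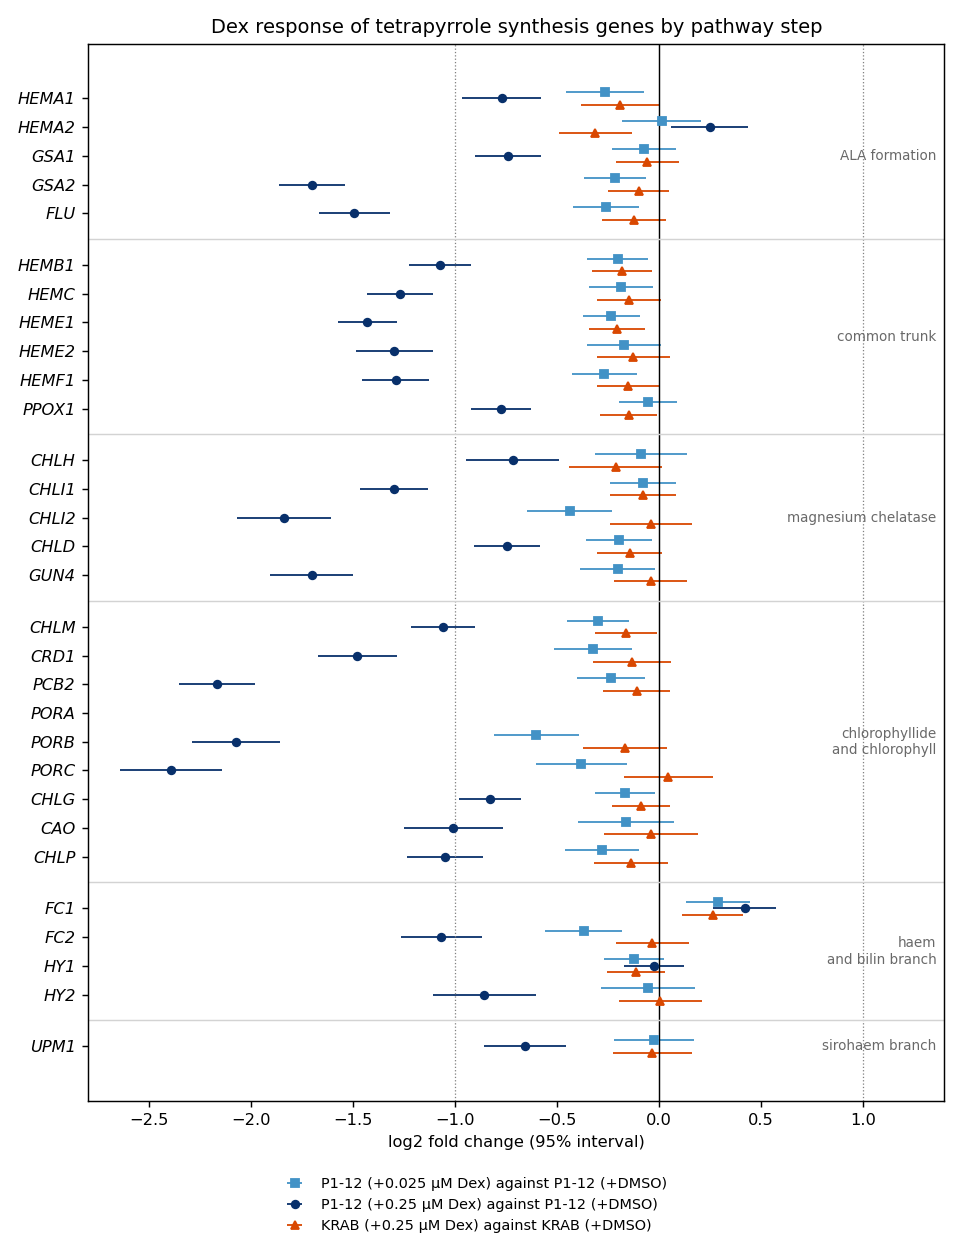
Log2 fold changes (horizontal axis) of the 29 tested genes, grouped by pathway step, in P1-12 at each Dex dose against P1-12 (+DMSO) and in KRAB (+0.25 μM Dex) against KRAB (+DMSO), with bars for the 95% interval of the fit and no point for PORA, which was not tested. At 0.25 μM Dex in P1-12 the points lie between -2.39 for PORC and 0.42 for FC1, while in KRAB none passed the test.

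The steps that form ALA moved unequally. HEMA1 encodes the main glutamyl-tRNA reductase of green tissue, the enzyme that commits glutamate to this pathway. Its level was 279.5 and 279.7 CPM in P1-12 (+0.25 μM Dex), against 492 and 463 CPM in P1-12 (+DMSO), with a log2 change of -0.77 (SE 0.09, adjusted p = 4.65e-06). HEMA2 (AT1G09940, chr1:3236908-3239554, minus strand) encodes another glutamyl-tRNA reductase, expressed also in non-green tissue. It had 41.5 and 39.4 CPM in P1-12 (+0.25 μM Dex), against 32.96 and 35.1 CPM in P1-12 (+DMSO), and its log2 change was 0.25 (SE 0.09, adjusted p = 0.0280). The 2 groups did not overlap for either gene, and the isoforms moved in opposite directions. Of all genes, 40.2% had both Dex libraries below both DMSO libraries and 39.5% had both above. The HEMA2 call was lost with DESeq2, where the adjusted p was 0.0927, and without replicate 1 of either group.

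The next step, from glutamate-1-semialdehyde to ALA, is made by the aminotransferases GSA1 and GSA2. GSA2 (AT3G48730, chr3:18049571-18051778, plus strand) had 92.7 and 94.97 CPM in P1-12 (+0.25 μM Dex), against 317 and 294 CPM in P1-12 (+DMSO). This was a log2 change of -1.70 (SE 0.07, adjusted p = 3.30e-10). GSA1 fell by 0.74 on the log2 scale, to 123 and 119 CPM against 208 and 195 CPM in P1-12 (+DMSO), so the more abundant isoform fell further. FLU, a thylakoid protein that represses glutamyl-tRNA reductase in the dark, fell as well, with 37.5 and 41.0 CPM in P1-12 (+0.25 μM Dex), against 115 and 107 CPM in P1-12 (+DMSO), a log2 change of -1.50 (SE 0.08). Of the 5 genes of this step, 4 fell and 1 rose, with a median of -0.77, where 29.2% of all genes were called lower and 28.3% higher.

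In the common trunk from ALA to protoporphyrin IX all 6 genes fell, 5 of them as SDEGs, with a median log2 change of -1.28. Of all genes, 29.2% were called lower and 8.06% were downward SDEGs. HEMB1, the ALA dehydratase that joins ALA into a pyrrole, fell by 1.08 on the log2 scale, and HEMC, the porphobilinogen deaminase that builds the linear tetrapyrrole, fell by 1.27. The uroporphyrinogen decarboxylases HEME1 and HEME2 fell by 1.43 and 1.30 on the log2 scale. HEME1 had 93.3 and 90.9 CPM in P1-12 (+0.25 μM Dex), against 254 and 242 CPM in P1-12 (+DMSO). HEMF1, coproporphyrinogen oxidase, fell by 1.29, and PPOX1, which makes protoporphyrin IX itself, fell by 0.78, the smallest change of the trunk. For each of the 6 genes both libraries at 0.25 μM Dex were below both DMSO libraries, as were those of 40.2% of all genes.

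Magnesium chelatase inserts magnesium into protoporphyrin IX and is built of the subunits CHLH, CHLI and CHLD, with GUN4 as the porphyrin-binding activator. All 5 genes of this step fell, with a median of -1.30, where 29.2% of all genes were called lower. The change differed in size between the parts of the enzyme. CHLI2 (AT5G45930, chr5:18627950-18629697, plus strand), the minor ATPase subunit, had 25.9 and 31.6 CPM in P1-12 (+0.25 μM Dex), against 106 and 100 CPM in P1-12 (+DMSO), a log2 change of -1.84 (SE 0.11, adjusted p = 4.30e-09). GUN4 (AT3G59400, chr3:21948501-21949796, minus strand) had 34.2 and 34.6 CPM, against 108 and 116 CPM in P1-12 (+DMSO), a log2 change of -1.70 (SE 0.09, adjusted p = 2.58e-09). CHLI1, the major ATPase subunit, fell by 1.30 on the log2 scale, to 227 and 224 CPM against 567 and 544 CPM. CHLD and CHLH fell by less, with log2 fold changes of -0.75 (SE 0.08) and -0.72 (SE 0.11). CHLH, the large subunit that binds porphyrin, was at 1356 and 1358 CPM, against 2346 and 2118 CPM in P1-12 (+DMSO). GUN4 shares 946 bases of its annotated span with AT3G59410 on the opposite strand, whose log2 change was 0.27 (adjusted p = 0.0204), and the strand setting of the counting is not given in the sources used here.

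**Figure D2:**
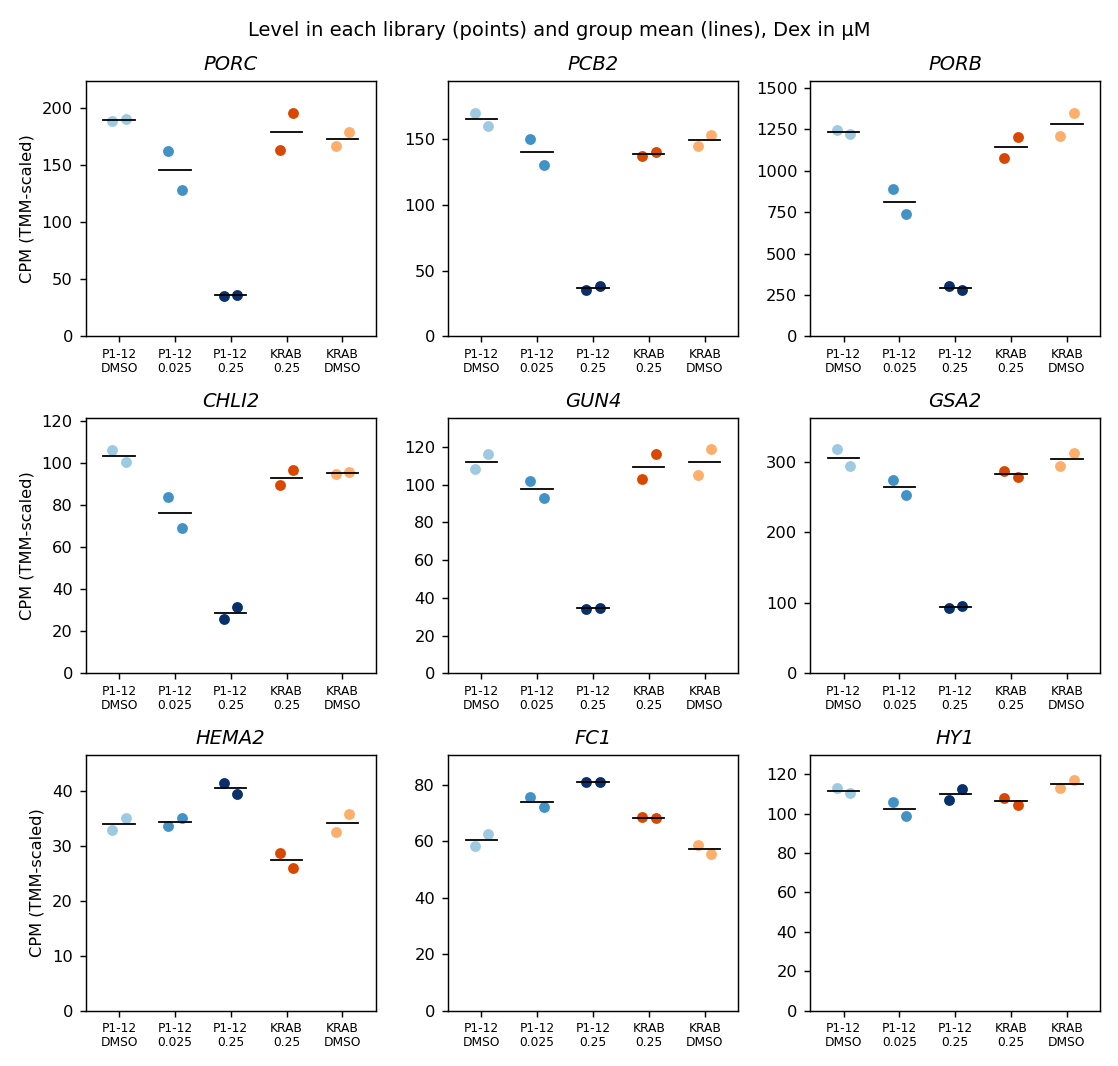
TMM-scaled CPM (vertical axis, from 0) of 9 genes of the pathway in the 5 groups, each point being 1 library and each line a group mean. PORC, PCB2, PORB, CHLI2, GUN4 and GSA2 lie below all other libraries in the 2 P1-12 (+0.25 μM Dex) libraries, whereas HEMA2 and FC1 lie above them and HY1 overlaps P1-12 (+DMSO).

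The steps from magnesium protoporphyrin to chlorophyll held the largest changes of the pathway. Of the 9 genes listed, the 8 that were tested all fell, 7 as SDEGs, with a median log2 change of -1.27. Among all genes tested, 29.2% were called lower and 8.06% were downward SDEGs. PORC (AT1G03630, chr1:907523-909650, plus strand) and PORB (AT4G27440, chr4:13725546-13727440, plus strand) encode protochlorophyllide oxidoreductases, the enzymes that need light to make chlorophyllide. PORC had 35.7 and 36.4 CPM in P1-12 (+0.25 μM Dex), against 188 and 190 CPM in P1-12 (+DMSO), a log2 change of -2.39 (SE 0.12, adjusted p = 8.36e-10). PORB had 304.0 and 282 CPM, against 1248 and 1221 CPM in P1-12 (+DMSO), a log2 change of -2.07 (SE 0.10, adjusted p = 8.30e-10). Both genes were several times lower and their groups lay far apart. PORB shares 71 bases with AT4G27450 on the opposite strand, a locus with a log2 change of 1.15.

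PCB2 (AT5G18660, chr5:6220710-6222300, minus strand) encodes the divinyl reductase of chlorophyll synthesis. It had 35.2 and 38.1 CPM in P1-12 (+0.25 μM Dex), against 170 and 160 CPM in P1-12 (+DMSO), a log2 change of -2.17 (SE 0.09, adjusted p = 1.42e-10). CRD1, a subunit of the cyclase that closes the fifth ring, had 573 and 561 CPM, against 1599 and 1564 CPM in P1-12 (+DMSO), and fell by 1.48 on the log2 scale. CHLM, the methyltransferase between chelatase and cyclase, fell by 1.06. The later steps fell by similar or smaller amounts. CHLP, the geranylgeranyl reductase that supplies phytol, fell by 1.05, CAO, which oxidises chlorophyll a to chlorophyll b, by 1.01, and CHLG, chlorophyll synthase, by 0.83 on the log2 scale. PORA, the oxidoreductase known from etiolated seedlings, had 5 and 6 counts in P1-12 (+0.25 μM Dex), against 16 and 15 counts in P1-12 (+DMSO). In a fit without the filter its log2 change was -1.18 (SE 0.54, adjusted p = 0.0631), which did not pass. In that fit PORA at 0.25 μM Dex in P1-12 was lower against P1-12 (+0.025 μM Dex), at -1.37 (SE 0.54, adjusted p = 0.0317), and against KRAB (+0.25 μM Dex), at -1.92 (SE 0.48, adjusted p = 0.00019), and the interaction was -1.26 (adjusted p = 0.112).

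The haem, bilin and sirohaem branches were mixed, with FC2, HY2 and UPM1 lower, FC1 higher and HY1 not called. FC1 and FC2 encode ferrochelatases, of which FC2 is the main isoform of green tissue and FC1 is expressed more widely and is known to respond to stress. FC1 (AT5G26030, chr5:9096451-9099185, plus strand) had 81.0 and 81.0 CPM in P1-12 (+0.25 μM Dex), against 58.3 and 62.7 CPM in P1-12 (+DMSO), a log2 change of 0.42 (SE 0.07, adjusted p = 0.000175). FC2 had 39.8 and 34.2 CPM, against 79.3 and 75.4 CPM in P1-12 (+DMSO), a log2 change of -1.07 (SE 0.09). The ferrochelatase isoforms thus moved in opposite directions, as the glutamyl-tRNA reductases did.

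HY1 encodes the main plastid haem oxygenase, which opens haem into biliverdin. Its level was 107 and 112 CPM in P1-12 (+0.25 μM Dex), against 113 and 110 CPM in P1-12 (+DMSO), and the groups overlapped. The log2 change was -0.02 (SE 0.07, adjusted p = 0.795), with a 95% interval from -0.17 to 0.12, and the sign turned to 0.04 without replicate 1 of P1-12 (+0.25 μM Dex). HY2, which reduces biliverdin to phytochromobilin, fell by 0.86 on the log2 scale, to 11.7 and 11.2 CPM against 20.0 and 21.6 CPM in P1-12 (+DMSO). UPM1, the methyltransferase that opens the sirohaem branch, fell by 0.66, to 102 and 106 CPM against 171 and 158 CPM. Of the 4 haem and bilin genes, 2 fell, 1 rose and 1 did not pass, with a median of -0.44. Among all genes tested, 29.2% were called lower and 28.3% higher.

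At the lower dose most of the pathway lay slightly below its level on DMSO, and few genes passed the test. In P1-12 (+0.025 μM Dex) against P1-12 (+DMSO), 8 of the 29 genes were lower, FC1 was higher and 20 did not pass, where 3.46% of all genes were called lower and 4.55% higher. The median log2 change was -0.20, 27 of the 29 values were negative, and 19 had an unadjusted p under 0.05. For 21 of the 29 genes both libraries at 0.025 μM Dex were below both DMSO libraries, as were those of 25.7% of all genes. This comparison and the one at 0.25 μM share their DMSO libraries.

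PORB had the largest low-dose change, with 891 and 737 CPM in P1-12 (+0.025 μM Dex), against 1248 and 1221 CPM in P1-12 (+DMSO). Its log2 change was -0.60 (SE 0.10, adjusted p = 0.00144). CHLI2 had 83.6 and 69.0 CPM, against 106 and 100 CPM in P1-12 (+DMSO), a log2 change of -0.44 (SE 0.10, adjusted p = 0.0130). PORC had 163 and 128 CPM against 188 and 190 CPM, a log2 change of -0.38 (SE 0.10, adjusted p = 0.0375). In these genes the groups did not overlap, with the Dex libraries lower, as in 25.7% of all genes. Replicate 2 of the Dex group was the lower of its 2 libraries.

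The other members called at the lower dose came from the trunk, the chlorophyll steps and the ferrochelatases. FC2 had 63.1 and 56.7 CPM in P1-12 (+0.025 μM Dex), against 79.3 and 75.4 CPM in P1-12 (+DMSO), a log2 change of -0.37 (SE 0.09, adjusted p = 0.0195). CRD1 had 1334 and 1194 CPM against 1599 and 1564 CPM, a log2 change of -0.32 (SE 0.09, adjusted p = 0.0390). CHLM had 267 and 243 CPM against 316 and 312 CPM, a log2 change of -0.30 (SE 0.07, adjusted p = 0.0196). Each of these fell at the higher dose too, by more. HEMF1 had 223 and 198 CPM in P1-12 (+0.025 μM Dex), against 262 and 245 CPM in P1-12 (+DMSO), a log2 change of -0.27 (SE 0.07, adjusted p = 0.0386). HEME1 had 215 and 207 CPM against 254 and 242 CPM, a log2 change of -0.24 (SE 0.06, adjusted p = 0.0399), and lost its call without the filter (adjusted p = 0.0638). FC1, the single member that rose, had 75.8 and 72.1 CPM against 58.3 and 62.7 CPM, a log2 change of 0.29 (SE 0.07, adjusted p = 0.0240). Its call was lost with DESeq2 (adjusted p = 0.0864).

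The low-dose count rested on few libraries. It fell to 1 lower gene, PORB, without replicate 1 of P1-12 (+DMSO) or without replicate 2 of P1-12 (+0.025 μM Dex), to 3 without replicate 2 of P1-12 (+DMSO), to 4 when either P1-12 (+0.25 μM Dex) library was left out, and was 11 without replicate 1 of KRAB (+DMSO). FC1 lost its call without any one of the 4 libraries compared. Of the 29 genes, 26 were lower in replicate 2 than in replicate 1 of P1-12 (+0.025 μM Dex), with a median log2 difference of -0.14, where 49.8% of all genes were lower.

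Between the doses, in P1-12 (+0.25 μM Dex) against P1-12 (+0.025 μM Dex), 26 of the 29 genes were lower and HEMA2 was higher, with a median log2 change of -0.85. Over all genes, 26.4% were called lower and 24.1% higher. PORC again had the largest change, a log2 change of -2.01 (SE 0.12, adjusted p = 1.13e-08), followed by PCB2 at -1.93 (SE 0.09, adjusted p = 1.37e-09). HEMA2 had 41.5 and 39.4 CPM in P1-12 (+0.25 μM Dex), against 33.7 and 35.0 CPM in P1-12 (+0.025 μM Dex), a log2 change of 0.23 (SE 0.09, adjusted p = 0.0429). That call was lost with DESeq2, without the filter on low counts, and without any one of the 4 libraries compared. FC1 differed between the doses by 0.13 on the log2 scale and HY1 by 0.10, and neither passed the test (adjusted p = 0.143 and 0.246).

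In KRAB, which has the repressor but no guide RNA, no member passed the test. In KRAB (+0.25 μM Dex) against KRAB (+DMSO), edgeR called 0 of the 29 genes lower and 0 higher, DESeq2 also called 0, and 7 genes had an unadjusted p under 0.05. Over all genes, 0.813% were called lower and 2.06% higher. The median log2 fold change of the 29 genes was -0.12 and 26 values were negative. Both Dex libraries were below both DMSO libraries for 18 of the 29 genes and for 23.1% of all genes. HEMA1 was called lower when replicate 1 of KRAB (+DMSO) was left out, and HEMA2 without the filter on low counts.

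Of the members that rose in P1-12, FC1 had a value of the same sign in KRAB and HEMA2 one of the opposite sign, and neither passed the test. FC1 had 68.6 and 68.2 CPM in KRAB (+0.25 μM Dex), against 58.9 and 55.5 CPM in KRAB (+DMSO), a log2 change of 0.26 (SE 0.07, adjusted p = 0.0616). HEMA2 had 28.7 and 26.0 CPM, against 32.5 and 35.7 CPM in KRAB (+DMSO), a log2 change of -0.31 (SE 0.08, adjusted p = 0.0643). For both genes the groups did not overlap, the FC1 libraries with Dex lying above those on DMSO and the HEMA2 libraries with Dex below them. Libraries with Dex lay wholly above those on DMSO for 22.3% of all genes and wholly below for 23.1%. PORA, which did not pass the filter, had 72 and 30 counts in KRAB (+0.25 μM Dex), against 17 and 65 counts in KRAB (+DMSO). Scaled for library size, these were 1.79 and 2.67 CPM with Dex, against 1.51 and 2.28 CPM on DMSO. In the fit without the filter its log2 change in KRAB was 0.08 (SE 0.33, adjusted p = 0.978).

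The test separated the lines on Dex and called no pathway gene between them on DMSO. Between P1-12 (+DMSO) and KRAB (+DMSO), edgeR and DESeq2 each called 0 of the 29 genes, 0 had an unadjusted p under 0.05, and the log2 differences ran from -0.06 to 0.15, with 0.012% of all genes called higher and 0% lower. At 0.25 μM Dex, P1-12 was lower than KRAB for 26 of the 29 genes and higher for HEMA2 and FC1, with a median of -0.92, where 30.9% of all genes were called lower and 29.2% higher. PORC had 35.7 and 36.4 CPM in P1-12 (+0.25 μM Dex), against 163 and 196 CPM in KRAB (+0.25 μM Dex), a log2 change of -2.31 (SE 0.12, adjusted p = 1.28e-09). HEMA2 was higher by 0.55 (SE 0.09, adjusted p = 8.47e-05) and FC1 by 0.24 (SE 0.07, adjusted p = 0.00797) on the log2 scale.

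The difference in Dex response between the lines was tested as an interaction, the log2 fold change with 0.25 μM Dex in P1-12 minus that in KRAB. It was negative and called for 26 of the 29 genes and positive and called for HEMA2, with a median of -0.97, while 25.1% of all genes were called lower and 22.9% higher. PORC differed most, by -2.44 (SE 0.15, adjusted p = 4.51e-08), and CHLH least among those called, by -0.50 (SE 0.15, adjusted p = 0.0123). The CHLH call was lost without replicate 1 of KRAB (+DMSO), of P1-12 (+DMSO) or of P1-12 (+0.25 μM Dex). HEMA2 differed by 0.56 (SE 0.12, adjusted p = 0.00171). FC1 differed by 0.16 (SE 0.10, adjusted p = 0.210), so the test did not separate its change in P1-12 from that in KRAB, and HY1 differed by 0.09 (SE 0.10, adjusted p = 0.462).

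Several steps have 2 isoforms, and their balance changed at the higher dose. Shares are of the summed RPKM of the pair. RPKM is CPM divided by the length in kilobases of all annotated exons of the locus, so that the isoforms are compared per length. The shares are given as a description and were not tested. FC1 made up 68.3% ± 2.35 of the ferrochelatase pair in P1-12 (+0.25 μM Dex), against 43.4% ± 2.12 in P1-12 (+DMSO) (SD, n = 2 each), and 49.5% ± 1.97 in KRAB (+0.25 μM Dex), against 44.6% ± 0.34 in KRAB (+DMSO). With 54.8% ± 0.99 in P1-12 (+0.025 μM Dex), FC1 was the larger part of the pair at both doses in P1-12 and the smaller part on DMSO.

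GSA1 made up 53.8% ± 1.07 of its pair in P1-12 (+0.25 μM Dex), against 37.4% ± 0.19 in P1-12 (+DMSO), so the order of the aminotransferase isoforms was the reverse of that on DMSO. HEMA1 remained the main reductase, with 86.8% ± 0.42 in P1-12 (+0.25 μM Dex), against 93.0% ± 0.56 in P1-12 (+DMSO). CHLI1 made up 88.2% ± 1.56 of the CHLI pair, against 83.7% ± 0.14 in P1-12 (+DMSO). HEME1 was at 38.8% ± 0.11, against 41.0% ± 0.60, the least changed of these pairs along with PORB, whose share of PORB plus PORC was 89.8% against 87.7%. The coding sequences of the pairs are 82.8% identical for HEMA, 83.5% for GSA and 81.8% for CHLI. They are 59.7% identical for HEME, 65.2% for FC, 73.5% for PORB and PORC, and 83.3% for PORB and PORA. Reads from the more similar pairs could have been divided between them in the counting. PORA held only 0.0873% to 0.190% of the summed RPKM of PORA, PORB and PORC. How far PORB reads entered the PORA counts was not tested.

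**Figure D3:**
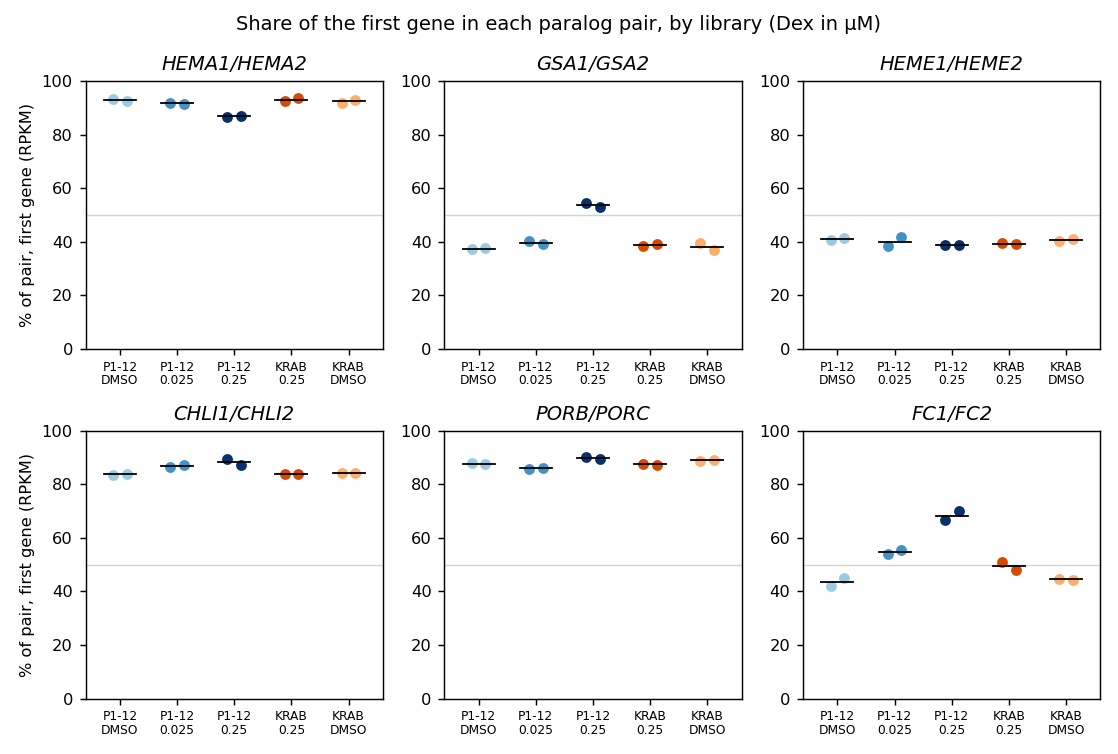
Share of each isoform pair taken by the first-named gene (percent of the pair's summed RPKM, vertical axis) in every library of the 5 groups. FC1 lies at 66.6% and 70.0% in P1-12 (+0.25 μM Dex), above every library of the other groups, and GSA1 lies at 54.6% and 53.0% there, against 37.3% and 37.5% in P1-12 (+DMSO).

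Per unit of length, CRD1 was the most abundant transcript of the pathway in both P1-12 groups compared here. Its mean was 379.7 RPKM in P1-12 (+0.25 μM Dex), against 1059 RPKM in P1-12 (+DMSO). CHLP followed at 323 RPKM, CHLH at 285 RPKM and PORB at 179 RPKM in P1-12 (+0.25 μM Dex), whereas in P1-12 (+DMSO) PORB was second at 752 RPKM, ahead of CHLP at 669 RPKM and CHLH at 469 RPKM. The libraries of these 4 genes did not overlap in either group. HY2 was the lowest of the tested genes in both, at 5.79 RPKM against 10.5 RPKM, and PORA lay below it at 0.328 RPKM against 0.756 RPKM. Among the 30 genes PORC stood at rank 25 in P1-12 (+0.25 μM Dex), against rank 15 in P1-12 (+DMSO), GSA2 at rank 16 against rank 10, and HY1 at rank 9 against rank 23. The libraries of PORC and of GSA2 overlapped those of a gene next to them in rank in both groups, so their ranks are approximate.

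**Figure D4:**
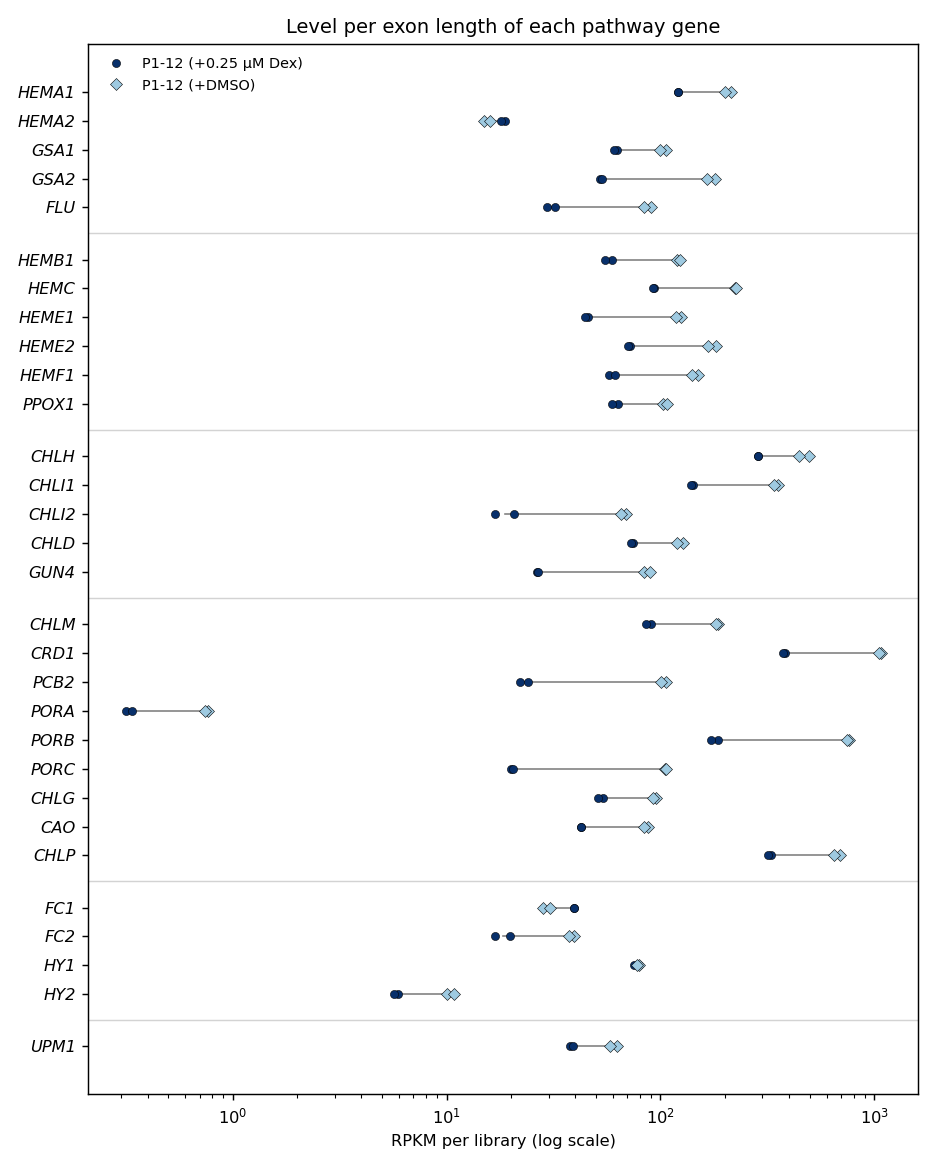
RPKM of the 30 genes along the pathway (horizontal log axis) in P1-12 (+0.25 μM Dex) against P1-12 (+DMSO), with 2 libraries each, each point being 1 library, with a line joining the group means. The Dex points lie to the left of the DMSO points for all genes but HEMA2 and FC1, which lie to the right, and HY1, where they overlap.

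A further 17 genes known to act in or on the pathway were measured, of which 12 passed the filter and 5 (HEMA3, HEMB2, HO3, HO4 and TSPO) did not. In P1-12 (+0.25 μM Dex) against P1-12 (+DMSO) all 12 fell, with a median of -0.93, where 29.2% of all genes were called lower. LIL3.1, a thylakoid protein that anchors the geranylgeranyl reductase, fell by 1.73 on the log2 scale, HEMD, uroporphyrinogen III synthase, by 1.55, and YCF54, a factor of the cyclase, by 1.42. GBP, which binds glutamyl-tRNA reductase, fell by 1.41, HO2, of the haem oxygenase family, by 1.07 and HCAR, the hydroxymethyl chlorophyll a reductase, by 1.03. At 0.025 μM Dex only GBP passed the test, at -0.26 (adjusted p = 0.0351), and in KRAB only HCAR, at -0.45 (adjusted p = 0.0230). Of all genes, 3.46% were called lower at 0.025 μM Dex in P1-12 and 0.813% in KRAB. HO2 thus fell where HY1, the other tested member of that family, did not pass.

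Whole seedlings hold both root and shoot, so markers of each were summed. The 16 shoot markers outside photosynthesis summed to 611 and 622 CPM in P1-12 (+0.25 μM Dex), against 896 and 898 CPM in P1-12 (+DMSO), and to between 863 and 973 CPM in the libraries of the other groups. Of the 12 tested, 7 were lower and 3 higher, with a median of -0.38, beside the 29.2% lower and 28.3% higher of all genes, and with CER1, a wax synthesis gene, at -3.14 and SPCH, a stomatal lineage factor, at 2.88 on the log2 scale. The 15 root markers summed to between 145 and 165 CPM in P1-12 (+0.25 μM Dex), against 162 to 164 CPM in P1-12 (+DMSO), and to 183 and 213 CPM in KRAB (+0.25 μM Dex), against 155 to 175 CPM in KRAB (+DMSO). Of the 12 root markers tested, 3 were lower and 1 higher in P1-12 at 0.25 μM Dex, with shares of 25% and 8.33% that lie below those of all genes. PRP1 among the root markers and GL1 among the shoot markers had 0 counts in 1 library each, both of P1-12 (+0.25 μM Dex). The summed shoot markers were lower at the higher dose, as the pathway genes were, while single shoot markers went in both directions, and their part in the result was not tested.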

How the data were processed

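The deposited values are raw counts of reads per locus, which the authors made by trimming with Trimmomatic, aligning to TAIR10 with TopHat2 and counting with HTSeq. Tool versions and the strandedness used in counting are not given in the sources used here, so overlapping and near-identical genes are uncertain. All 10 columns were mapped to samples by their labels.

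From the counts, TMM-scaled CPM and tests were computed with edgeR 4.0.16 in R 4.3.3. The study's methods name edgeR and the filter, a CPM above 2 in at least 9 of 10 libraries. The quasi-likelihood test (glmQLFit and glmQLFTest on 5 group means) was chosen here. P-values were Benjamini-Hochberg adjusted over all 16721 genes. RPKM used the exon length of RefSeq's TAIR10.1 annotation, which also gave coordinates and promoter windows. MORF2 has no coordinates here. The fit was tested on simulated data.

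The members and lists were chosen with earlier results of these data known. All members are named, with full statistics for the 6 largest changes at 0.25 μM Dex, for called members of opposite sign and for those called at 0.025 μM Dex or in KRAB. Alternatives were RLE size factors, DESeq2 1.42.0, no filter, a replicate block, nuclear loci only, libraries of 1 line, raw-count isoform shares, a shorter promoter window and leaving out each library.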

Additional observations from a re-analysis of the deposited data

Results flagged for a closer look

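The Dex response of 27 of the 29 tested pathway genes, and of the targeted gene MORF2, was not the same in P1-12 as in KRAB by the test of the interaction itself. In the same test 25.1% of all genes were called lower and 22.9% higher. The values below are the log2 fold change at 0.25 μM Dex in P1-12 minus that in KRAB. Among the chlorophyll steps PORC had -2.44, PCB2 -2.06, PORB -1.91, CRD1 -1.35, CAO -0.97, CHLP -0.91, CHLM -0.90 and CHLG -0.74. Among the chelatase genes CHLI2 had -1.80, GUN4 -1.66, CHLI1 -1.22, CHLD -0.60 and CHLH -0.50. In the trunk HEME1 had -1.22, HEME2 -1.17, HEMF1 -1.14, HEMC -1.12, HEMB1 -0.89 and PPOX1 -0.63. Among the ALA genes GSA2 had -1.60, FLU -1.37, GSA1 -0.68 and HEMA1 -0.58, while HEMA2 alone was positive, at 0.56. In the side branches FC2 had -1.04, HY2 -0.86 and UPM1 -0.62. MORF2 itself had -1.07. KRAB had values that were mostly slightly negative, and each line is 1 transgenic line.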

How the results depend on the processing

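At 0.25 μM Dex in P1-12, the 26 lower genes stayed 26 under RLE size factors, DESeq2, no filter, nuclear loci only, the libraries of P1-12 alone and without any single library. The higher count was 1 with DESeq2, and 1 to 2 when libraries were left out. HY1 ranged from -0.047 to 0.035 when libraries were left out, reversing without replicate 1 of P1-12 (+0.25 μM Dex). At 0.025 μM Dex the lower count ran from 1 to 11 and the higher count from 0 to 1 when libraries were left out, and the higher count was 0 with DESeq2. HEME1 lost its low-dose call with no filter. For 0.25 against 0.025 μM Dex the higher count was 0 with DESeq2 and with no filter, and 0 to 1 when libraries were left out. The lower count in KRAB was 1 with no filter, and 0 to 1 when libraries were left out. The interaction count ran from 25 to 26. MORF2 at 0.25 μM Dex ranged from -1.13 to -1.02 against P1-12 (+DMSO), from -1.19 to -1.07 against KRAB and from -1.12 to -1.003 for the interaction. Isoform shares from raw counts moved 11 shares by more than 1 SD. In the shorter window CCAATC was in 3 members and the I-box core in 2. An edgeR exact test, chosen after seeing the data, made the same low-dose calls. The fit on the libraries of 1 line gives no value for comparisons between lines. The cause of these changes was not tested.

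The sources used here do not say whether same-numbered libraries were paired. None of 10 pairs of same-numbered libraries had a correlation of deviations over 0.1 (range -0.13 to 0.0753), which cannot exclude a pairing. With the replicate block the low-dose lower count was 5, where HEME1, CRD1 and PORC lost their calls, and the higher count for 0.25 against 0.025 μM Dex was 0. The block changed none of the other member calls.

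Low counts limit PORA, and 2 libraries per group limit every interval.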
